A study of Homo sapiens with 9 samples.

Results

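The transcriptional change that followed 1 MPZL3 short hairpin RNA, shMPZL3 #1, was measured by RNA-seq in OVCAR4 cells, an established line of high-grade serous ovarian carcinoma. The comparison used 6 of the 9 libraries of the series, 3 of cells that carried shMPZL3 #1 and 3 of cells that carried a scramble (scr) shRNA, all chosen by their sample labels. The other 3 libraries, of cells that carried shMPZL3 #2, entered the estimate of the spread and served as a reference for how far a change held for the other shRNA. All cells were OVCAR4 grown with insulin in the medium, received an shRNA by lentivirus and were selected with puromycin for 3 days, so that transduction and selection were common to the control and the knockdown. No cloning step is described, and the measured RNA is an average over the transduced population of each culture. The study's methods call the 3 libraries of a condition biological replicates, and the labels do not say what separated them, so p-values measure the spread between these libraries.

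MPZL3 is a transmembrane protein with an immunoglobulin domain, a member of a small family of adhesion proteins, with MPZL1 and MPZL2. An shRNA is transcribed from the integrated vector, cut to a short duplex and loaded onto an Argonaute protein, which then degrades transcripts that match the guide strand. High-grade serous carcinoma cells keep epithelial markers such as PAX8 and EPCAM, and can gain mesenchymal genes under stress or signalling.

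The libraries held 15040102 to 21757321 counts in the scr group and 20146466 to 22804445 in the shMPZL3 #1 group. Mitochondrially encoded genes took 7.16% to 7.76% of counts in scr and 7.75% to 8.65% in shMPZL3 #1. The root mean square distance in log2 CPM (counts scaled to library size) was 0.451 to 0.534 among scr libraries, 0.515 to 0.539 among shMPZL3 #1 libraries and 0.639 to 0.924 between the groups, and replicate 3 of shMPZL3 #1 lay farthest from the controls. The summed level of 19 ovarian carcinoma lineage genes was 6401 to 6631 CPM in scr and 6629 to 7930 CPM in shMPZL3 #1, whereas 10 lymphocyte markers summed to at most 3.32 CPM in any of the 6 libraries. The 11 macrophage and neutrophil markers summed to 2.40 to 4.92 CPM in scr and 7.50 to 12.5 CPM in shMPZL3 #1, with CD163, TYROBP, CSF3R and FCGR3A at 0 in every library. Endothelial markers summed to 22.4 to 25.7 and 17.6 to 18.6 CPM, with EMCN at 0, and fibroblast and mesothelial markers to 145 to 155 and 139 to 165 CPM, with DCN at 0.

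MPZL3 itself, on chromosome 11 from 118226690 to 118252350 on the minus strand of hg38, had normalized counts of 536, 611 and 587 in scr replicates 1 to 3 and 119, 143 and 123 in shMPZL3 #1 replicates 1 to 3. Normalized counts are counts scaled by library size and TMM factor to the mean library. The groups did not overlap, and the transcript was left at 22.2% of its control mean (log2 fold change -2.17 ± 0.16 (SE), adjusted p = 3.7e-07, edgeR quasi-likelihood test with Benjamini-Hochberg adjustment over all genes tested). The two-sided exact permutation test of 3 against 3 libraries gave p = 0.1, the smallest value that design allows. With shMPZL3 #2 the normalized counts were 284, 380.4 and 271, a log2 fold change of -0.89, and the difference between the shRNAs was 1.28 ± 0.16 (SE, adjusted p = 5.7e-05). The related MPZL1, an adhesion protein that signals through SHP2, rose from 2249.8, 2483 and 2152 to 3003, 2902 and 3183 normalized counts (log2 fold change 0.40 ± 0.09 (SE), adjusted p = 0.0037). MPZL2 had a log2 fold change of 0.30 (adjusted p = 0.092). Of 22 tested genes within 500 kb of MPZL3, 2 were called higher and 5 lower, where 16.8% and 15.3% of all genes tested were called.

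Across the transcriptome, shMPZL3 #1 was followed by a change in many genes, most of it below 2-fold. Of 16928 genes tested, 2838 (16.8%) were called higher and 2585 (15.3%) lower at an adjusted p under 0.05, with a median log2 fold change of 0.01 over all genes. The rises were larger than the falls. At a log2 fold change of at least 1, 1006 genes (5.94%) were higher and 236 (1.39%) lower, and at 2 or more the counts were 252 and 39. The median called rise was 0.78 and the median called fall -0.53 on the log2 scale. All 3 shMPZL3 #1 libraries lay above all 3 scr libraries in 4047 genes (23.9%) and below them in 3863 (22.8%).

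The direction of the calls varied with expression level. In the tenth of genes with the highest mean level, 17.96% were called higher and 33.1% lower. In the tenth with the lowest level, 8.39% were called higher and 2.48% lower. Among 749 lincRNA genes 121 (16.15%) were higher and 32 (4.27%) lower, against 2513 (18.41%) and 2394 (17.54%) of the 13651 protein-coding genes. The lincRNA genes thus differed in their share of falls more than in their share of rises.

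**Figure D1:**
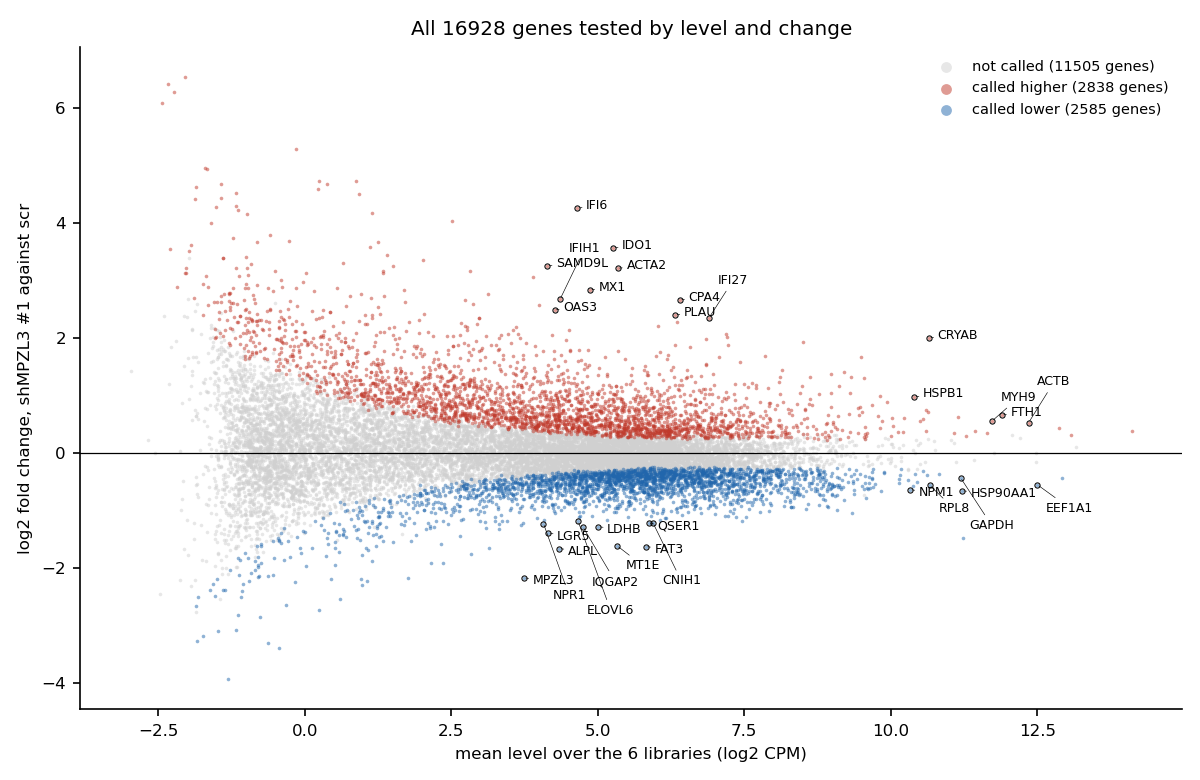
Each point is 1 of the 16928 genes tested, placed by its mean level over the 6 libraries (x axis, log2 CPM) and its log2 fold change for shMPZL3 #1 against scr (y axis), with called genes coloured by direction. The rises reach farther from 0 than the falls, and at the right edge the abundant genes include CRYAB at 2.00 above the line and EEF1A1 at -0.55 below it.

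The largest rises among well expressed protein-coding genes were in interferon-induced genes and in a few genes of other kinds. IFI6, an interferon-induced mitochondrial membrane protein that limits cell death, had 79.8, 134 and 203 normalized counts in scr and 960.3, 1589 and 5418 in shMPZL3 #1 (log2 fold change 4.26 ± 0.49 (SE), adjusted p = 1.5e-05). Replicate 3 of shMPZL3 #1 was far above the other knockdown libraries, and the lowest knockdown library was still above every control. IDO1, the enzyme that starts the breakdown of tryptophan to kynurenine, rose from 142, 282 and 291 to 1786, 3060.3 and 3701 (log2 fold change 3.57 ± 0.28 (SE), adjusted p = 5.0e-07), a change of 11.9-fold. ACTA2, smooth muscle actin, rose from 141, 307 and 408 to 2185, 2591 and 3190.1 (log2 fold change 3.21 ± 0.25 (SE), adjusted p = 5.0e-07). ACTA2 overlaps FAS in the annotation, and the reads carry no strand. In both genes the lowest knockdown library was several times the highest control.

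Of the remaining rises in the top 10, 5 belong to the interferon response. SAMD9L, a restriction factor, had a log2 fold change of 3.26, the dynamin-like GTPase MX1 2.84, the RNA sensor IFIH1 2.67, the oligoadenylate synthetase OAS3 2.49 and IFI27 2.35, all with adjusted p of at most 3.9e-05. The other two encode secreted proteases. PLAU, the urokinase plasminogen activator, rose from 669, 738 and 752 to 2846, 3971 and 4599 normalized counts (log2 fold change 2.40 ± 0.14 (SE), adjusted p = 4.2e-08), or 5.29-fold. CPA4, a carboxypeptidase, went from 431, 767 and 964 to 3017, 4613 and 6077 (log2 fold change 2.66 ± 0.25 (SE), adjusted p = 3.1e-06). For every gene in the top 10, the lowest shMPZL3 #1 library exceeded the highest scr library, which the rule required.

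**Figure D2:**
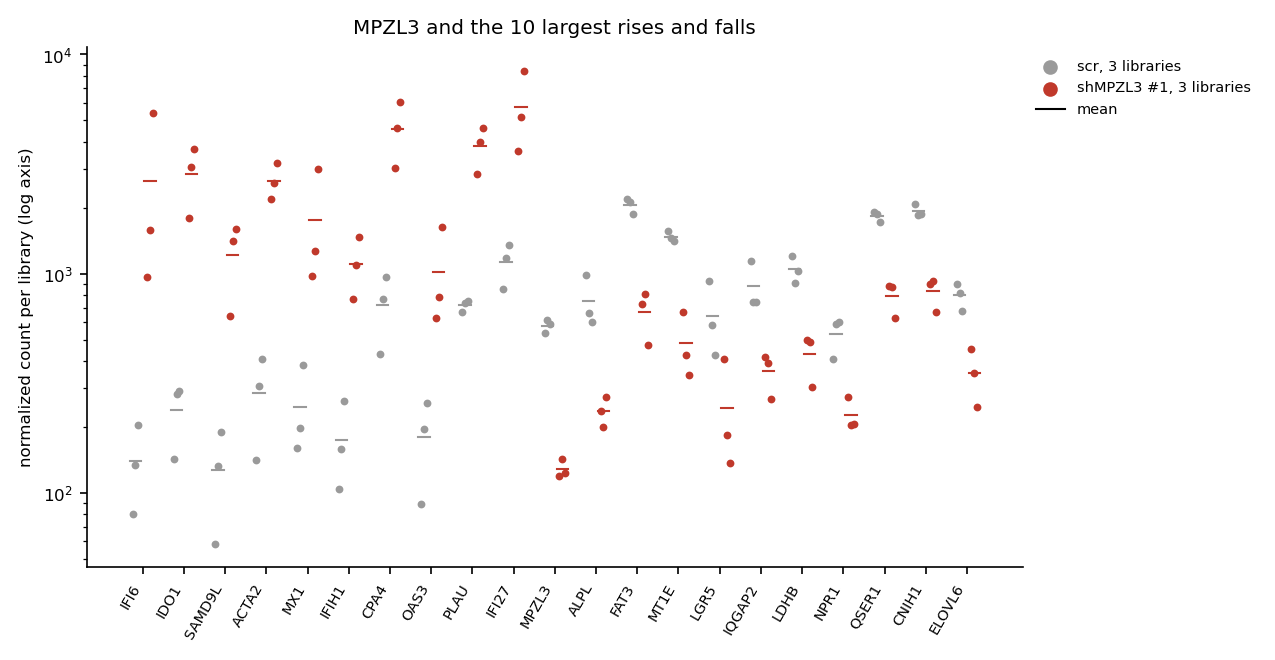
Normalized counts per library (y axis, log scale) of MPZL3 and of the 10 largest rises and falls among protein-coding genes with a mean log2 CPM of at least 4 (x axis). Points are the 3 scr and 3 shMPZL3 #1 libraries and short bars their means. MPZL3 falls from 536 to 611 down to 119 to 143, and IFI6 in knockdown replicate 3 stands apart at 5418.

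The largest falls were smaller, between -1.19 and -1.66 on the log2 scale, and came from unrelated functions. ALPL, the tissue-nonspecific alkaline phosphatase, fell from 985, 657 and 602 to 235, 199.7 and 273 normalized counts (adjusted p = 9.0e-06). FAT3, an atypical cadherin, fell from 2194, 2115 and 1873 to 728, 804 and 471 (adjusted p = 3.0e-06). MT1E, a metallothionein that binds zinc and copper, fell from 1557, 1448 and 1405 to 668, 425 and 346 (adjusted p = 3.0e-05). In none of these 3 genes did the groups overlap. LGR5, an R-spondin receptor that marks epithelial stem cells, fell by 1.40 with a wide error of 0.45 (SE), since its counts ran from 920.1 down to 423 in scr and from 409 down to 137 in the knockdown. LGR5 was no longer called without scr replicate 1 (adjusted p = 0.12), without replicate 2 (0.075) or replicate 3 (0.11) of shMPZL3 #1, or by DESeq2 (0.14). IQGAP2, a scaffold of the actin cortex, fell by 1.29, the lactate dehydrogenase subunit gene LDHB by 1.28, the natriuretic peptide receptor gene NPR1 by 1.23, QSER1 by 1.22, the cargo receptor gene CNIH1 by 1.21 and the fatty acid elongase gene ELOVL6 by 1.19.

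By absolute level, and with the mitochondrially encoded genes left out, the protein-coding transcripts called higher that gained most were CRYAB, ACTB, FTH1, MYH9 and HSPB1. CRYAB, the small heat shock protein alpha B-crystallin, rose from 10218, 18913 and 21850.4 to 59671, 62726 and 81958 normalized counts (log2 fold change 2.00 ± 0.21 (SE), adjusted p = 6.3e-06). HSPB1 (HSP27), of the same family, rose from 18578, 19771 and 21208 to 39636, 33832 and 43826 (log2 fold change 0.98 ± 0.11 (SE), adjusted p = 1.3e-05), and HSPB8 had a log2 fold change of 1.48 (adjusted p = 6.5e-07). The cytoskeletal genes ACTB and MYH9 rose by 0.53 and 0.56, and the ferritin heavy chain gene FTH1 by 0.66. The transcripts that lost most by the same rule were EEF1A1, which delivers aminoacyl-tRNA to the ribosome (154206, 141676 and 138246 in scr, 109411, 101029 and 85707 in shMPZL3 #1), and those of the chaperone HSP90AA1 (-0.66), the glycolytic enzyme GAPDH (-0.43), the ribosomal protein RPL8 (-0.56) and nucleophosmin, NPM1 (-0.64). The last 5 adjusted p-values were at most 0.0026. GAPDH and ACTB, both in common use as reference genes, thus moved in opposite directions.

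Among long non-coding RNAs the largest rises were in LINC00113, LINC02159 and AC025580.1, each at 2.41 on the log2 scale. LINC00113 had 6.65, 29.2 and 30.2 normalized counts in scr and 121, 104 and 134 in shMPZL3 #1. The largest falls were in AC007996.1 (-1.92), AC022098.1 (-1.69) and MIR17HG (-1.65), the host transcript of the miR-17-92 cluster, which fell from 91.7, 78.3 and 49.5 to 17.4, 28.8 and 23.6 (adjusted p = 7.9e-04). AC007996.1 and AC022098.1 overlap the more abundant genes KCTD1 and ADGRL1 by annotated start and end. Part of their reads may come from those neighbours, and overlap of exons was not examined.

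Of the lists with at least 6 genes tested, interferon-stimulated genes had the largest median rise. Interferon receptors signal through a complex of STAT proteins and IRF9, which binds the interferon-stimulated response element (ISRE) in the promoters of antiviral genes. Of 45 interferon-stimulated genes tested, 42 were called higher and 0 lower, and 35 rose by at least 1 on the log2 scale, against 16.8% and 5.94% of all genes. Their median log2 fold change was 1.64, against 0.01 over all genes. By library, the list's median relative to the scr mean was 1.27, 1.57 and 2.02 in shMPZL3 #1 replicates 1 to 3 and -0.34 to 0.28 in scr. The knockdown libraries were thus all above the controls, with the highest value in replicate 3, and without that library 40 of the 45 were still called.

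Sensors and effectors both rose. OAS1, which makes the second messenger that activates RNase L, had 3.99, 6.6 and 24.7 normalized counts in scr and 121, 153 and 339.5 in shMPZL3 #1 (log2 fold change 4.18 ± 0.48 (SE), adjusted p = 1.5e-05). IFI44 rose from 23.9, 28.3 and 35.7 to 270.0, 441 and 725 (log2 fold change 4.03 ± 0.35 (SE), adjusted p = 1.8e-06), and XAF1, a promoter of cell death, from 5.32, 13.2 and 22 to 128, 165 and 226 (log2 fold change 3.68 ± 0.34 (SE), adjusted p = 2.8e-06). In these 3 genes no control library exceeded 35.7 normalized counts and no knockdown library fell below 121. ISG15, a ubiquitin-like modifier, rose from 572, 833 and 998 to 2638, 2956 and 6086 (log2 fold change 2.28 ± 0.25 (SE), adjusted p = 1.1e-05). Of the signalling genes, STAT2 rose by 0.61 (adjusted p = 0.001). IRF9 was at 7.98 to 13.7 normalized counts in scr and 10.9 to 16.5 in the knockdown and was not called, nor were MX2 (-0.02) and IFITM2 (-0.27).

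The promoters of 4 of these genes are shown because they carry the ISRE letters that the list shares. They are RefSeq sequences of GRCh38.p14, from 250 bases before to 50 after the annotated start, with each match to GAAANNGAAA on either strand in capitals. Where 2 matches overlap, they form 1 longer run of capitals.
IFI6 (chr1:27672143-27672442, - strand): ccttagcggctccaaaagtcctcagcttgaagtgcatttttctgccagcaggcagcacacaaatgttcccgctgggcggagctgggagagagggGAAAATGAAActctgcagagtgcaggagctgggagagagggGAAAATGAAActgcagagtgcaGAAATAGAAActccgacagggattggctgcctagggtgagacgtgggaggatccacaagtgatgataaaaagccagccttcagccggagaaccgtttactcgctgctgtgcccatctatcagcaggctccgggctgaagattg
ISG15 (chr1:1013247-1013546, + strand): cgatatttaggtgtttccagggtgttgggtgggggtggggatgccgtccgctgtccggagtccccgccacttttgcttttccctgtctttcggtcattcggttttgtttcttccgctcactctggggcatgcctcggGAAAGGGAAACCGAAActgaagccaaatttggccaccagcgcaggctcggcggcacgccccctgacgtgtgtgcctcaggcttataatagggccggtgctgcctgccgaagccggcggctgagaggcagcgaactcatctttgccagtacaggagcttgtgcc
MX1 (chr21:41420308-41420607, + strand): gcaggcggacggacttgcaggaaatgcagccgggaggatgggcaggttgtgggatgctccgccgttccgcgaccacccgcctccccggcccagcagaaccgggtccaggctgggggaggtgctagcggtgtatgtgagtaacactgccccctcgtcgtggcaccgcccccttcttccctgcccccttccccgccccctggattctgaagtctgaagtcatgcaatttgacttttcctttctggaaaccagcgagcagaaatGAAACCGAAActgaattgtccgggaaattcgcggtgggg
IFI27 (chr14:94110486-94110785, + strand): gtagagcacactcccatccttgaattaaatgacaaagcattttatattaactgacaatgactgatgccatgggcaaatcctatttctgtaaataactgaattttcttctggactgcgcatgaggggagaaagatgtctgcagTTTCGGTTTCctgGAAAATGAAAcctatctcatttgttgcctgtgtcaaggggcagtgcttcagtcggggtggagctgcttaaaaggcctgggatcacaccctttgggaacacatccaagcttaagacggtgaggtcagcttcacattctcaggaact
IFI6 held 3 matches, ISG15 and IFI27 2 each, and MX1 1. Of the 35 interferon-stimulated genes with a promoter in the table, 24 (68.6%) held at least 1 match, against 2.76% of the 10728 tested protein-coding genes with a promoter there. The match is a description of the letters and says nothing of binding in these cells.

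Antigen presentation genes rose with them. HLA class I molecules show peptides that the immunoproteasome cuts and TAP carries into the endoplasmic reticulum. Of 17 genes tested, 14 were higher and 0 lower, with a median of 0.98. HLA-B rose from 2413, 4639 and 4863 to 11285, 14254 and 19709 normalized counts (log2 fold change 1.92 ± 0.22 (SE), adjusted p = 1.2e-05), the non-classical HLA-F had a log2 fold change of 2.27 and the peptide transporter TAP1 of 2.21, and the immunoproteasome subunit PSMB9 of 1.70. TAP1 and PSMB9 overlap in the annotation, and HLA-B shares near-identical sequence with HLA-C. B2M, the common light chain, rose by 0.81 (adjusted p = 5.2e-04), whereas the chaperone gene CALR had 0.04 (adjusted p = 0.78).

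Targets of NF-kB, which drives inflammatory genes, rose in part. Of 31 tested, 21 were higher and 0 lower, with a median of 0.73. SAA1, an acute phase apolipoprotein, rose from 16, 94.3 and 118 to 258, 248 and 553 normalized counts (log2 fold change 2.20 ± 0.40 (SE), adjusted p = 5.5e-04), and IL1A, which encodes a cytokine that is active in its precursor form, from 21.3, 23.6 and 37.1 to 84.2, 134 and 152 (log2 fold change 2.19 ± 0.37 (SE), adjusted p = 2.9e-04). BIRC3, an inhibitor of apoptosis, had 709, 1916 and 2161 in scr and 3852, 8153 and 8026 in shMPZL3 #1 (log2 fold change 2.06 ± 0.34 (SE), adjusted p = 2.8e-04), with scr replicate 1 well below the other controls, as it was for the whole list (-0.47 against 0.17 and 0.36). Without that control library 17 of the 31 were called higher and 1 lower. In these 3 genes no knockdown library was as low as a control. IL6, the acute phase cytokine, rose by 1.09 ± 0.24 (SE, adjusted p = 0.0021). CXCL8, the neutrophil chemokine, had 424, 1167 and 1136 normalized counts in scr and 1008, 1192 and 1091 in shMPZL3 #1, groups that overlapped, and was not called (adjusted p = 0.47). SAA1 and SAA2 (1.88) are close paralogs that can share reads. Of 22 AP-1 and immediate early genes, 10 were higher and 1 lower, led by IER3 (1.14), KLF4 (1.14), KLF2 (0.97) and PHLDA1 (0.94). KLF2 was not called without scr replicate 1 (1.02, adjusted p = 0.063), scr replicate 2 (0.71, adjusted p = 0.15) or shMPZL3 #1 replicate 3 (0.70, adjusted p = 0.17).

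Cell cycle genes fell as a group. Of 54 G2/M genes, which build the spindle and the mitotic chromosome, 52 were called lower and 0 higher, against 15.3% and 16.8% of all genes, with a median of -0.72. The list's median by library was -0.52, -0.72 and -1.05 in shMPZL3 #1 replicates 1 to 3 and -0.02 to 0.02 in scr. Without replicate 3, the lowest, 51 were still called lower. Of 42 S phase genes 34 were lower and 0 higher (median -0.54), a count that fell to 23 without replicate 3 of shMPZL3 #1. In bulk RNA, fewer cells in a phase and less RNA per cell in that phase cannot be told apart.

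Among single genes, ANP32E, a histone chaperone, fell from 5816, 5333 and 5222 to 2603, 2809.9 and 1836 normalized counts (log2 fold change -1.18 ± 0.14 (SE), adjusted p = 1.7e-05). LBR and TMPO, which tie chromatin to the nuclear envelope, fell by 1.14 and 1.04, and the spindle gene PSRC1 by 1.05. MKI67, the proliferation marker Ki-67, fell from 9722, 10553 and 10572 to 7754, 6765 and 5382 (log2 fold change -0.63 ± 0.12 (SE), adjusted p = 6.8e-04). TOP2A, the topoisomerase that untangles replicated DNA, fell from 8715, 8888 and 9277 to 5286, 5206 and 3550.4 (adjusted p = 7.2e-05). In each of these genes no knockdown library reached the lowest control. The mitotic kinesins KIF23 and KIF18A fell by 0.92 and 0.86, while KIF3C and KIF26B rose by 1.04 and 1.04. Of 35 kinesin genes, a list added after the values were seen, 5 were higher and 12 lower. These shares were 14.3% and 34.3%, against 16.8% and 15.3% of all genes.

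The promoters of 2 genes of the G2/M list are shown for the letters its members share, the cell cycle homology region (CHR, TTTGAA) and the CCAAT box, which MuvB complexes and NF-Y are known to bind. Matches on either strand are in capitals, in the same RefSeq windows as above, and both genes were chosen after their values were seen.
CDC20 (chr1:43358731-43359030, + strand): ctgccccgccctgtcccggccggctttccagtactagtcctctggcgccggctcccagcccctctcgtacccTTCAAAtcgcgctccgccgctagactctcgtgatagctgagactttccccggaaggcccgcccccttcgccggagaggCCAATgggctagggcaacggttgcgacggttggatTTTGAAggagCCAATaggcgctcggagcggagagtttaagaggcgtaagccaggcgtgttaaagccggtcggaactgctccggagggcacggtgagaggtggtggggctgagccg
CCNB2 (chr15:59104896-59105195, + strand): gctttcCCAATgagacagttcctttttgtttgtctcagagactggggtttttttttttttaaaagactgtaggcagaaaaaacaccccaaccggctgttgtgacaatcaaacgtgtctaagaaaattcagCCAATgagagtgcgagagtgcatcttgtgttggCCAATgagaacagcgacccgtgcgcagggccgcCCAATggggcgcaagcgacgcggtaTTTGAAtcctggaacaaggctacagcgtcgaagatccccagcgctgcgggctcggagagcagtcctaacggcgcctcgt
CDC20, the activator of the anaphase-promoting complex, fell by 0.88 (adjusted p = 1.3e-04) and the mitotic cyclin gene CCNB2 by 0.83 (adjusted p = 6.8e-04). The CHR letters were in 31 of 45 G2/M promoters (68.9%) and in 9.53% of all, and the CCAAT box in 68.9% and 36.0%. Of the 32 S phase promoters 6.25% held the CHR letters, 71.9% the CCAAT box and 50.0% 1 of the E2F letters TTTGGCGC, TTTCCCGC and TTTCGCGC, which 4.46% of all promoters held.

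The DNA replication machinery moved with them, but its list overlaps the S phase list, and PRIM1 was the lowest member of both. Of 40 genes of the MCM helicase, GINS, the origin recognition complex and the polymerases, 32 were lower and 0 higher, and all 40 fitted values were below 0 (median -0.52). PRIM1, the primase, fell by 1.07, and the clamp loader subunit RFC3 from 1324, 1331 and 1312 to 678, 849 and 583 normalized counts (log2 fold change -0.91 ± 0.14 (SE), adjusted p = 1.6e-04), with RPA3 and RFC5 at -0.88 and -0.83. PRIM1 overlaps the abundant gene NACA and RFC5 overlaps WSB2, so that reads may be shared. TYMS, which makes thymidylate, fell by 0.78, the chromatin factor CDCA7 by 0.92 and the helicase BLM by 0.80. Of 29 homologous recombination and Fanconi genes, 16 were lower and 0 higher, among them the checkpoint kinase CHEK1 (-0.91), RAD54L (-0.80) and FANCG (-0.68).

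The genes that control entry into S phase split. CCND1, cyclin D1, fell from 6421, 6482 and 6339 to 3341, 3267 and 2836 normalized counts (log2 fold change -1.03 ± 0.09 (SE), adjusted p = 2.6e-06), with little spread in either group. CCNE1, cyclin E1, fell from 4025, 4391 and 4222 to 2884, 2191 and 1969 (log2 fold change -0.84 ± 0.12 (SE), adjusted p = 8.1e-05). Both cyclins bind kinases that inactivate RB1, and both were below every control in all 3 knockdown libraries. The CDK inhibitor CDKN1A (p21) rose from 791, 1090.4 and 995 to 1649, 1916 and 2321 (log2 fold change 1.03 ± 0.13 (SE), adjusted p = 3.2e-05), and CDKN2B (p15) from 1907, 2778 and 2730.4 to 4784, 5573 and 6738 (log2 fold change 1.20 ± 0.14 (SE), adjusted p = 1.6e-05). Both inhibitors were thus higher in every knockdown library than in any control. CDK6, the cyclin D kinase, also rose, from 4848, 5512 and 5314 to 7355, 10990.1 and 9927 (log2 fold change 0.85 ± 0.13 (SE), adjusted p = 1.6e-04), whereas CDK4 (-0.27, adjusted p = 0.069) and E2F1 (-0.12, adjusted p = 0.43) were not called. MYC fell from 1459, 1278 and 1310.2 to 1109, 925 and 999 (log2 fold change -0.42 ± 0.11 (SE), adjusted p = 0.007). Over the 21 genes of the list 3 were higher and 10 lower, or 6 lower without scr replicate 1 or scr replicate 2.

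GADD45A, a regulator of growth arrest, rose by 1.02 (adjusted p = 4.3e-04). The B-type lamins fell, LMNB1 from 5815, 5361 and 5443 to 3518, 2725 and 2195 normalized counts (log2 fold change -0.98 ± 0.13 (SE), adjusted p = 5.2e-05) and LMNB2 by 0.82, while the A-type lamin gene LMNA had 0.18 (adjusted p = 0.29). Replication-dependent histone genes, whose mRNAs mostly lack a poly-A tail and are poorly sampled by poly-A selection, were mixed. Of 33 tested 11 were higher, among them HIST1H4H (1.91), HIST1H2AC (1.77) and HIST1H2BG (1.53), and 3 lower, among them HIST1H1E (-1.42), whose call was lost without scr replicate 1 (adjusted p = 0.078) and without replicate 1 (0.063) or 3 (0.071) of shMPZL3 #1. None was lower without scr replicate 1 or without replicate 3 of shMPZL3 #1. Single genes of cell death that rose were CASP1, which activates interleukin-1 beta, by 1.73, the death ligand gene TNFSF10 (TRAIL) by 1.34, the death receptor gene FAS, which overlaps ACTA2, by 0.85 and the BH3-only gene HRK by 1.12. Over the 24 BCL2 family and death receptor genes 6 were higher and 3 lower, against 16.8% and 15.3% of all genes.

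**Figure D3:**
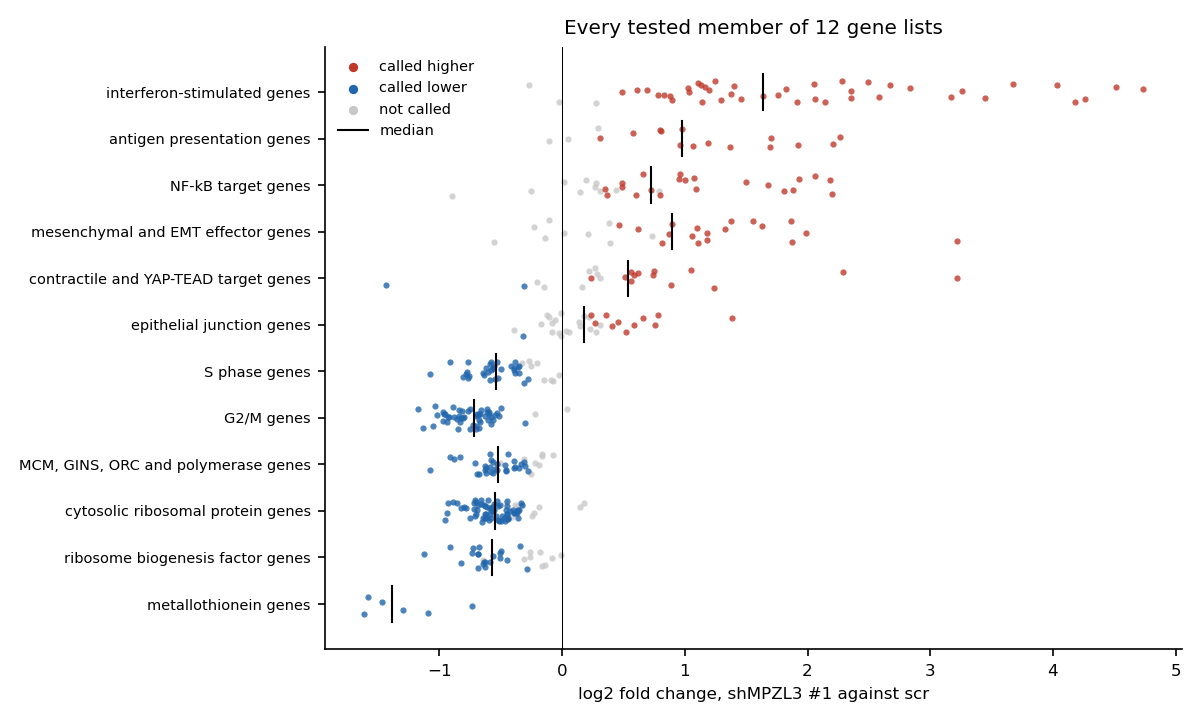
Every tested member of 12 gene lists by its log2 fold change for shMPZL3 #1 against scr (x axis), coloured by call, with the list median as a black bar. The G2/M, replication and ribosomal lists sit mostly left of 0 within a narrow band, and the interferon list spreads to the right up to 4.73.

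Genes of protein synthesis were called lower more often than higher. Of 78 genes of cytosolic ribosomal proteins tested, 68 were lower and 0 higher, with a median of -0.55 and no fall as large as 2-fold. The share lower was 87.2%, against 15.3% of all genes and 33.1% of the tenth with the highest level. The part of level in this count was not tested. The list's median was -0.29, -0.71 and -0.67 in shMPZL3 #1 replicates 1 to 3, so that replicate 1 fell less, and -0.06 to 0.08 in scr. RPS15A fell from 3776, 3121 and 3316 to 1808, 2056 and 1392 normalized counts (log2 fold change -0.96 ± 0.15 (SE), adjusted p = 2.0e-04), RPS3A by 0.94, RPS27A by 0.93 and RPS15 by 0.89. These genes have many processed pseudogenes that can take part of their reads, and they are short. Over protein-coding genes with a mean log2 CPM above 3, the eighth with the shortest annotated length had a median of -0.11 and the longest eighth 0.00.

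Further lists of this kind were drawn up after the values had been seen and are given as description. Of 30 ribosome biogenesis factors 21 were lower and 0 higher (median -0.57), with DDX18, a nucleolar helicase, at -1.13, NOP16 at -0.92, NOP58 at -0.82 and the methyltransferase FBL at -0.74. Of 78 mitochondrial ribosomal protein genes 35 were lower and 0 higher (median -0.32), and of 59 translation factors 30 were lower and 4 higher (median -0.31). These shares lower were 44.9% and 50.8%, against 15.3% of all genes and 33.1% of the tenth with the highest level. EIF4B, which assists the helicase EIF4A, fell from 5795, 5482 and 5448 to 3677, 2780.1 and 2809.9 normalized counts (log2 fold change -0.85 ± 0.11 (SE), adjusted p = 3.2e-05), while EIF4E3, an unusual cap-binding protein, rose from 158, 161 and 125 to 333, 337 and 323 (log2 fold change 1.15 ± 0.16 (SE), adjusted p = 5.9e-05). Of 20 aminoacyl-tRNA synthetases 14 were lower, led by EPRS (-0.94), of 34 proteasome genes 21, and of 12 purine synthesis genes 8, led by PAICS (-1.12). None of these 3 lists held a member that was called higher, and their shares lower were 70.0%, 61.8% and 66.7%. The part of level in the counts of these added lists was not tested. The counts also rested in part on single libraries. Without scr replicate 1 they were 20 lower for the mitochondrial ribosomal proteins, 19 for the translation factors, 6 for the synthetases and 13 for the proteasome. Without replicate 3 of shMPZL3 #1 they were 22, 20, 5 and 11, and without scr replicate 2 they were 22 for the mitochondrial ribosomal proteins and 8 for the synthetases.

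All 8 subunits of the chaperonin CCT, which folds actin and tubulin, were lower (median -0.50). So were 12 of 17 genes of the HSP90, HSP70 and HSP60 systems, with 0 higher. Of all genes 15.3% were lower, and of the tenth with the highest level 33.1%. HSPD1, the mitochondrial HSP60, fell from 20978, 18346 and 18498 to 11072, 9201 and 7741 normalized counts (log2 fold change -1.05 ± 0.12 (SE), adjusted p = 1.2e-05). Its partner HSPE1, which shares a bidirectional promoter and overlaps it in the annotation, fell by 0.98, and TRAP1, the mitochondrial HSP90, by 0.69. Of 6 genes on the small heat shock protein list, 3 were higher (CRYAB, HSPB1 and HSPB8, as given above). HSPB11 was lower, at -0.47 (adjusted p = 0.032). It was not called without any 1 scr library or without replicate 1 or 3 of shMPZL3 #1 (adjusted p up to 0.155). These lists, too, were drawn up with the values known.

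Mesenchymal genes rose, while more epithelial junction genes were called higher than lower. In the epithelial to mesenchymal transition, cells are known to gain vimentin, fibronectin and contractile proteins and to lose junctions. Of 27 mesenchymal effector genes tested 18 were higher and 0 lower, with a median of 0.90. Vimentin is an intermediate filament of mesenchymal cells. VIM, its gene, rose from 872, 1257 and 1497 to 3609, 5533 and 5241 normalized counts (log2 fold change 1.99 ± 0.18 (SE), adjusted p = 2.7e-06), and FN1, fibronectin, from 665, 932 and 1086 to 1813, 3415 and 4599 (log2 fold change 1.87 ± 0.27 (SE), adjusted p = 1.0e-04). The collagen genes COL1A1 and COL1A2 rose by 1.38 and 1.63 from low levels, the latter from 49.2, 55.6 and 53.6 to 139, 134 and 218. Both are also on the fibroblast and mesothelial marker list, of which 4 of 6 tested genes were higher and 1 lower (median 1.14, with DCN at 0), and the part of that list in the mesenchymal rise was not tested. CDH2, N-cadherin, had 459, 495 and 441 in scr and 521, 429 and 349.9 in shMPZL3 #1, overlapping groups, and was not called (log2 fold change -0.10 ± 0.14 (SE), adjusted p = 0.61). The same effector list holds S100A4, which rose by 0.90, and TGFBI, which rose by 1.86 with overlapping groups (13.3, 37.7 and 26.1 in scr, 35.7, 97.4 and 158 in shMPZL3 #1) and was not called without shMPZL3 #1 replicate 3 (1.31, adjusted p = 0.060) or by limma-voom (1.68, adjusted p = 0.087).

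Of 9 transcription factors known for this transition, SNAI1 alone passed the filter on low counts. It rose from 170.2, 181 and 159 to 288, 272 and 367 normalized counts (log2 fold change 0.86 ± 0.17 (SE), adjusted p = 0.0014). SNAI2 and TWIST1 had 0 counts in all 6 libraries, ZEB1 at most 3 and ZEB2 at most 4. Contractile and YAP-TEAD target genes were 13 higher and 2 lower of 22, including CNN1, calponin, at 2.29, ANKRD1, a classic YAP target, from 3154, 4033 and 3830.3 to 6629, 9441 and 9939 (log2 fold change 1.24 ± 0.14 (SE), adjusted p = 1.3e-05), and CTGF (CCN2) at 0.75. The receptor tyrosine kinase gene AXL fell by 1.44 from a low level.

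Of 31 epithelial junction genes 11 were higher and 1 lower (35.5% and 3.2%, against 16.8% and 15.3% of all genes). CDH1, E-cadherin, rose from 5026, 5217 and 5513 to 6808, 6829 and 7292 normalized counts (log2 fold change 0.41 ± 0.09 (SE), adjusted p = 0.0026). EPCAM, an epithelial adhesion protein, had 8805, 7900.4 and 8118 in scr and 8254, 7667 and 7461 in shMPZL3 #1 and was not called (log2 fold change -0.09 ± 0.09 (SE), adjusted p = 0.51). DSC2, a desmosomal cadherin, rose from 1415, 1684 and 1747 to 3065, 4611 and 4952 (log2 fold change 1.38 ± 0.16 (SE), adjusted p = 1.4e-05), with CLDN1, ELF3 and CDH3 at 0.78, 0.75 and 0.66. KRT17, a keratin of wounded and basal epithelium, rose by 1.31 and KRT16 by 0.81, while KRT7 rose by 0.35 with an adjusted p of 0.032, and KRT8 (0.25) and KRT18 (-0.09) were not called. Thus 3 of 14 keratins were higher and 0 lower, and the share higher, 21.4%, was near the 16.8% of all genes. The keratin count was 5 higher without replicate 2 of shMPZL3 #1 and 2 higher without any 1 scr library. Without replicate 3 of shMPZL3 #1 it was 1 higher and 1 lower. KRT16 was not called without replicate 3 of shMPZL3 #1 (adjusted p = 0.057), and KRT7 was called only when all libraries or all but that replicate 2 were used, with adjusted p of 0.077 to 0.10 otherwise.

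Genes of the matrix and its receptors were called higher more often than lower. Of 14 integrin subunits 8 were higher and 2 lower (57.1% and 14.3%, against 16.8% and 15.3% of all genes). Without scr replicate 1, 6 of 15 integrin subunits were higher. ITGB6, which activates latent TGF-beta, rose from 2524, 4036 and 4162 to 7716, 12268 and 9203 normalized counts (log2 fold change 1.44 ± 0.19 (SE), adjusted p = 3.5e-05), ITGA2 and ITGA5 by 1.15 and 1.06, and ITGA7 fell by 1.25. The 2 lists that follow were drawn up after the values were seen. Of 12 laminin chains 6 were higher and 2 lower (50.0% and 16.7%), with LAMB3 at 1.22 and LAMA5 at 0.72. Without scr replicate 1, or without replicate 3 of shMPZL3 #1, 3 laminin chains were higher. Of 6 genes of the plasminogen activator system 5 were higher and 0 lower (83.3% higher). Beside PLAU, its receptor PLAUR rose from 546, 575 and 667 to 1003, 981 and 1183 (log2 fold change 0.83 ± 0.12 (SE), adjusted p = 9.6e-05).

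Genes of the metabolic lists below were called lower more often than higher, where 15.3% of all genes were lower and 16.8% higher. In the tenth with the highest level 33.1% were lower, and the part of level in these counts was not tested. Of 25 cholesterol synthesis genes 15 were lower and 0 higher (median -0.44), with the sterol sensor INSIG1 at -0.84 and IDI1 at -0.81. This list differed between the knockdown libraries, with medians of -0.10, -0.53 and -0.69 in replicates 1 to 3. Its count of lower genes was 6 without replicate 3 and 9 without replicate 2 of shMPZL3 #1, and 8 without scr replicate 1 or scr replicate 3. Of 14 fatty acid synthesis genes 9 were lower and 0 higher, or 5 lower without replicate 3 of shMPZL3 #1, and the desaturase gene SCD had 15386, 12912 and 14553 normalized counts in scr and 11429, 6422 and 4605 in shMPZL3 #1 (log2 fold change -0.93 ± 0.21 (SE), adjusted p = 0.003), again with replicate 1 nearest the controls. FADS1, which desaturates polyunsaturated fatty acids, fell by 1.04. Of 22 glycolysis genes 9 were lower and 2 higher (40.9% and 9.1%). Without scr replicate 3 the count was 4 lower of 23 tested, and without replicate 3 of shMPZL3 #1 it was 5 lower. PFKP, a phosphofructokinase, fell by 0.66. ENO2, an enolase, had -0.44 (adjusted p = 0.024) and was not called without scr replicate 3 (adjusted p = 0.15), or without replicate 1 (0.067) or 2 (0.056) of shMPZL3 #1.

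The ATF4 and unfolded protein response list had 5 higher and 8 lower of 29 (17.2% and 27.6%, against 16.8% and 15.3% of all genes). ATF4 itself, the transcription factor of the amino acid response, fell by 0.64. The downstream transcription factors ATF3 and DDIT3 (CHOP) rose by 0.87 and 0.77, while the serine and folate enzymes PHGDH and MTHFD2 fell, PHGDH from 5954, 4480.3 and 4492 to 3024, 2415 and 2462 normalized counts (log2 fold change -0.92 ± 0.13 (SE), adjusted p = 8.4e-05) and MTHFD2 from 3109, 2738 and 2759 to 1620.3, 1638 and 1301 (log2 fold change -0.92 ± 0.12 (SE), adjusted p = 3.3e-05). NRF2 target genes were 4 higher and 5 lower of 20 (20% and 25%, against the same 16.8% and 15.3%). Among them were OSGIN1 at 1.17, AKR1C3 at 0.83 and the pentose phosphate enzyme PGD at -0.85. The cystine transporter SLC7A11 was at -0.76, with overlapping groups. The NRF2 list had 3 lower without replicate 3 of shMPZL3 #1. Without that library AKR1C3 was not called (0.62, adjusted p = 0.070), and SLC7A11 was not called without it (-0.72, adjusted p = 0.087), without scr replicate 1 (-0.37, adjusted p = 0.25), without shMPZL3 #1 replicate 1 (-0.71, adjusted p = 0.078) or by limma-voom (-0.67, adjusted p = 0.070). All 6 metallothioneins tested, a list added after the values were seen, were lower (median -1.38). Beside MT1E, MT1A fell from 210.1, 156 and 168 to 71.4, 66.6 and 39.7 (log2 fold change -1.58 ± 0.22 (SE), adjusted p = 6.2e-05), MT1X by 1.30, MT1M by 1.47 and MT2A by 1.10. Metallothionein genes are near-identical in part and can share reads.

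Mitochondrial and nuclear genes of respiration differed in direction. Of the 13 protein-coding genes of the mitochondrial genome 7 were higher and 0 lower (median 0.32), with MT-ND1 at 0.63, MT-ND3 at 0.61, MT-ND6 at 0.48 and MT-CO2 at 0.44. The mitochondrial ribosomal RNAs MT-RNR1 and MT-RNR2, named after their values were seen, fell by 1.47 (adjusted p = 0.0031) and 0.44 (adjusted p = 0.017). Of 75 nuclear genes of the same respiratory complexes 27 were lower and 1 higher (36.0% and 1.33%, median -0.21). Among the lower genes were ATP5F1C (-0.65) and SDHD (-0.67). Of all genes 15.3% were lower and 16.8% higher. In the tenth with the highest level the shares were 33.1% lower and 17.96% higher, and the part of level in this count was not tested. Without scr replicate 1 the nuclear count was 15 lower, and without replicate 3 of shMPZL3 #1 it was 17. Of 30 lysosome genes 10 were higher and 1 lower, with the master regulator TFEB at 1.25, PSAP at 0.84, SCARB2 at 0.74 and GUSB at -0.85.

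Growth factor genes and lineage markers were mixed. Of 32 growth factors, receptors and feedback genes 14 were higher and 7 lower. IGFBP5, a carrier of insulin-like growth factors, rose from 4801, 8522 and 9530.4 to 17019, 18976 and 24881 normalized counts (log2 fold change 1.41 ± 0.19 (SE), adjusted p = 5.7e-05), TGFB2 and the EGF receptor ligand BTC by 1.17 and 1.17, and IGFBP6 fell by 1.28. Of 18 ovarian carcinoma lineage genes 5 were higher and 4 lower, counts that fell to 2 or 3 higher without any 1 of 5 libraries and to 2 lower without scr replicate 1 or shMPZL3 #1 replicate 3. MUC1 and WFDC2 (HE4) rose by 1.22 and 1.18, MUC16 (CA125) and the folate receptor FOLR1 fell by 0.61 and 0.76. PAX8, the lineage transcription factor, had 0.29 (adjusted p = 0.041) and was not called without any 1 of the same 5 libraries (adjusted p 0.057 to 0.16). Of 1142 genes that the table annotates as transcription factors 214 were higher and 134 lower (18.7% and 11.7%, against 16.8% and 15.3% of all genes), and of the 10 of the E2F family 6 were lower and 0 higher, with E2F8 at -0.77. Of 11 macrophage and neutrophil markers 7 had at most 3 counts in every library, and 4 passed the filter on low counts. These 4 were called higher at low counts, CSF1R (1.15), CD14 (1.64), ITGAM (2.12) and S100A8 (2.81). The filter can pass a gene through the libraries where it is high, so this count is not a test of the list. With at least 10 counts asked of each of the 6 libraries, the list median was 1.18 and not 1.88. The part of these genes in the rise of the interferon and NF-kB lists was not tested.

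**Figure D4:**
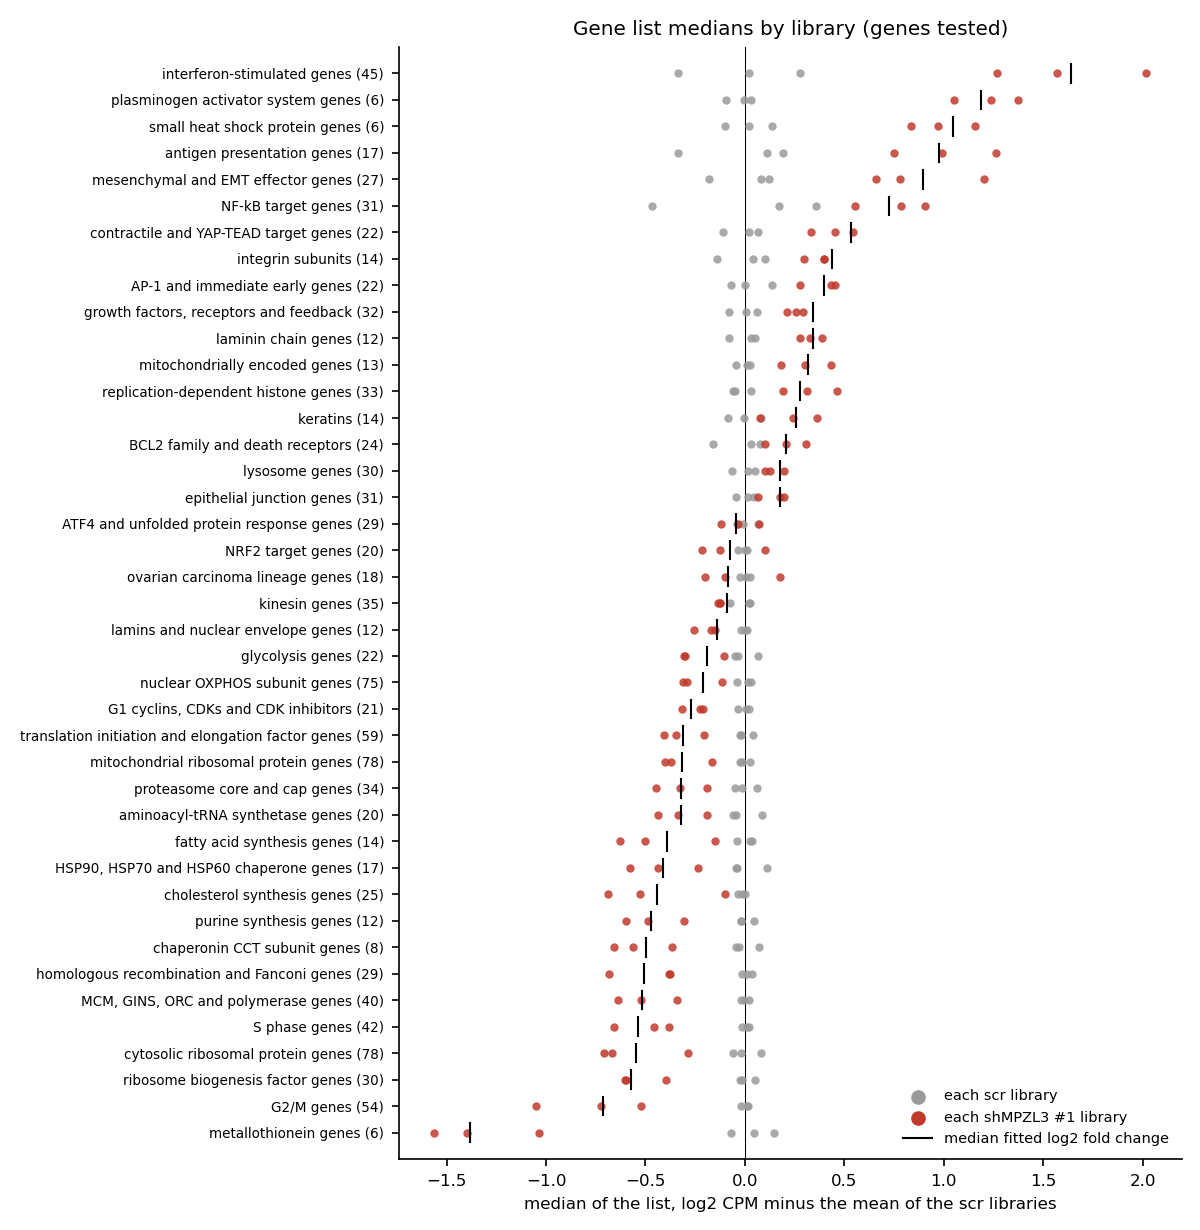
Median of each gene list in every library, as log2 CPM minus the mean of the scr libraries (x axis), for lists with at least 6 tested genes (number in brackets). Grey points are scr libraries, red points shMPZL3 #1 libraries and black bars the median fitted log2 fold change, which runs from -1.38 for metallothioneins to 1.64 for interferon-stimulated genes.

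The same genes were set beside their values with shMPZL3 #2, which was compared with the same 3 scr libraries, so that the 2 sets of fold changes share their controls. The difference between the shRNAs compares the 6 knockdown libraries with each other. By that test 1279 genes (7.56%) were higher with shMPZL3 #2 than with shMPZL3 #1 and 1280 (7.56%) lower. The falls in the cell cycle lists had smaller medians with shMPZL3 #2. The G2/M median was -0.72 with shMPZL3 #1 and -0.43 with shMPZL3 #2, and 20 of the 54 genes were called higher with shMPZL3 #2 than with shMPZL3 #1 and 0 lower. For the MCM, GINS, ORC and polymerase genes the medians were -0.52 and -0.18, with 23 of 40 differences called, all in that direction. For cytosolic ribosomal proteins they were -0.55 and -0.17, with 44 of 78 called and all in that direction. The amount of remaining MPZL3 also differed between the shRNAs, and its part in these differences was not tested.

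The interferon and NF-kB lists had larger medians with shMPZL3 #2. The interferon-stimulated genes had medians of 1.64 and 2.19, and 11 of 45 were called higher with shMPZL3 #2 than with shMPZL3 #1, with 0 lower. The NF-kB targets had medians of 0.73 and 1.64, with 14 called higher and 1 lower. CXCL8 was at 4549, 7836 and 5175 normalized counts with shMPZL3 #2, a log2 fold change of 2.68 against 0.27 with shMPZL3 #1. The antigen presentation medians were 0.98 and 0.94, and 0 of 17 differences were called by edgeR at an adjusted p under 0.05.

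Some changes were far larger with shMPZL3 #1. ACTA2 had 443, 539.7 and 409.6 normalized counts with shMPZL3 #2, a log2 fold change of 0.70 against 3.21, and the difference was -2.52 ± 0.23 (SE, adjusted p = 4.9e-06). IDO1 had 451, 766 and 528 (log2 fold change 1.28 against 3.57), PLAU 1304, 1317 and 1409 (0.90 against 2.40) and CRYAB 30294, 26151 and 23064 (0.64 against 2.00). The metallothioneins fell with shMPZL3 #1 and had a median of -0.04 with shMPZL3 #2, and all 6 differences were called. In MT2A the fitted values were -1.10 and 0.98. CCND1 was at -1.03 and -0.23, MYC at -0.42 and 0.50, CDK6 at 0.85 and -0.21, SNAI1 at 0.86 and -0.04, and PHGDH at -0.92 and 0.35, and each of these 5 differences was called.

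**Figure D5:**
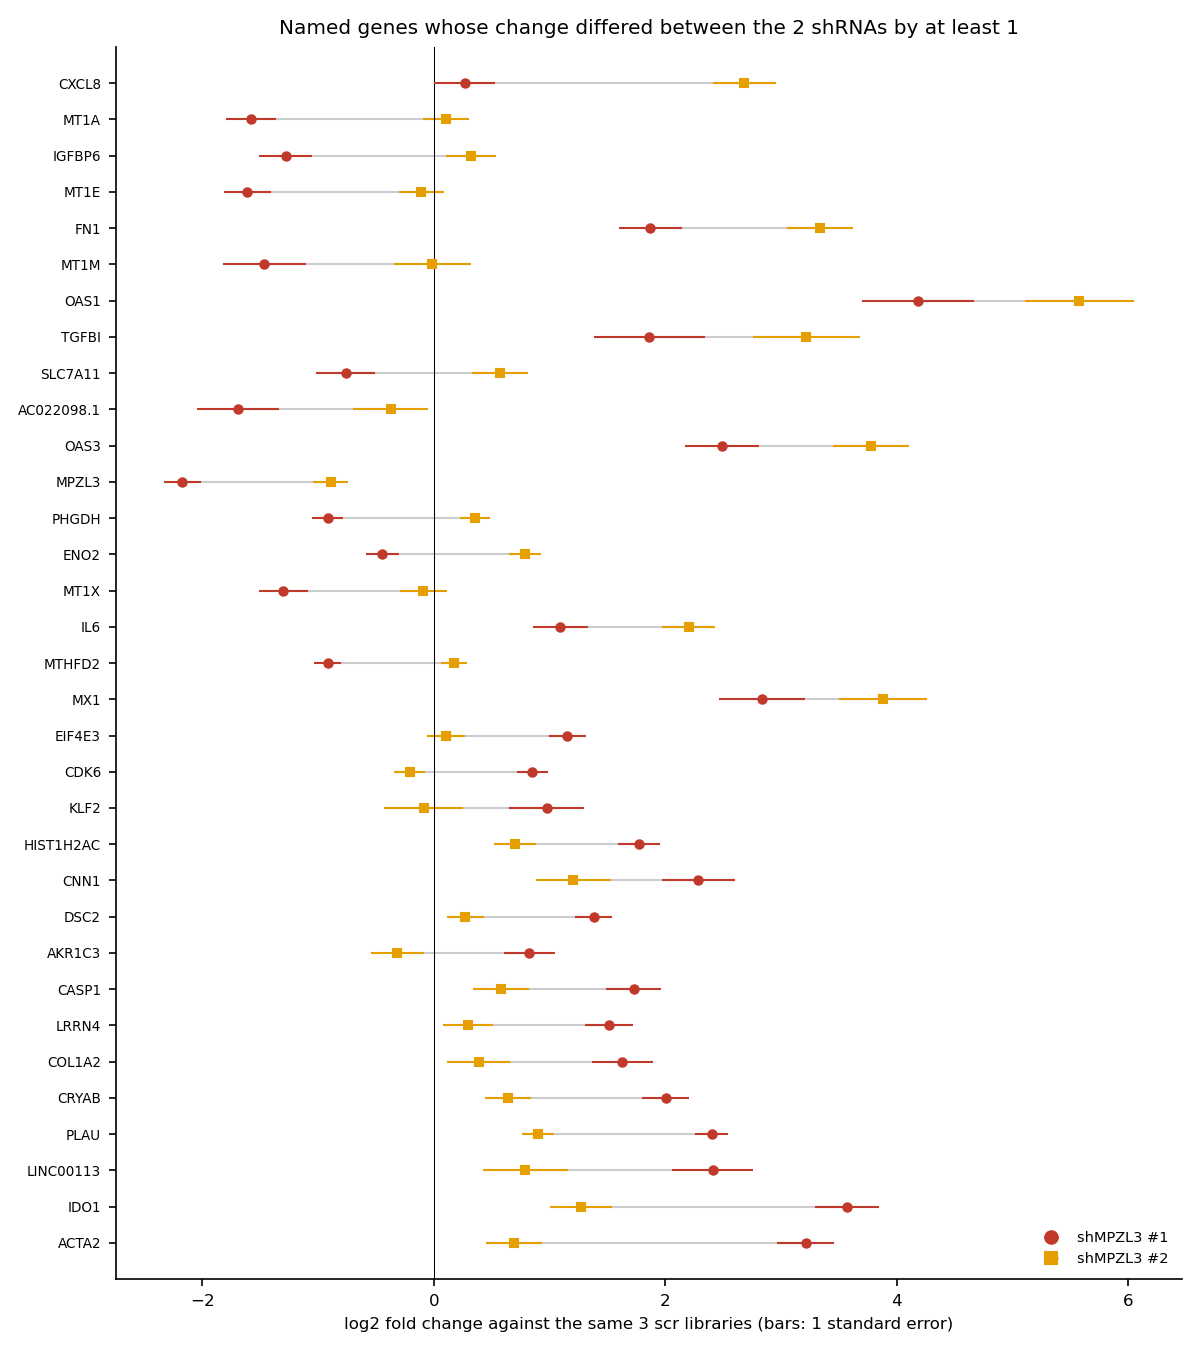
33 named genes whose log2 fold change differed between the shRNAs by at least 1 and whose difference was called. Circles are shMPZL3 #1 and squares shMPZL3 #2, each against the same 3 scr libraries (x axis, log2 fold change), with bars of 1 standard error. ACTA2 and IDO1 lie farther right with shMPZL3 #1, at 3.21 and 3.57, and CXCL8 with shMPZL3 #2, at 2.68.

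For other named genes no difference between the shRNAs was called, and 6 are given as examples chosen after their values were seen. The difference was -0.07 ± 0.18 (SE) at ALPL, 0.19 ± 0.15 at FAT3, -0.01 ± 0.23 at IFIH1, 0.00 ± 0.14 at ANKRD1, -0.11 ± 0.11 at HSPB8 and 0.19 ± 0.13 at CDKN1A. A difference that misses the threshold does not show that the values were equal.

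Reads were counted without strand. Some genes named here overlap, by annotated start and end, a gene with at least 50% as many counts, and their values are less certain. They are AC007996.1, AC022098.1, NOP16, RAD54L, RFC5, CHEK1, PRIM1, TYMS, DDIT3, EIF4E3, ITGA7, SDHD, HSPE1, FAS, PSMB9, HLA-B and CSF1R.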

How the data were processed

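Poly-A RNA of 9 OVCAR4 cultures was sequenced from libraries that keep no strand. Per the submitters' processing notes, the authors aligned reads to hg38 with HISAT2 2.0.5 and counted them per gene with featureCounts 1.5.0-p3, and they deposited raw counts of 58735 genes, whose identifiers match GENCODE release 29. Every sample column was mapped, with 0 left over. Here, edgeR 4.0.16 (R 4.3.3) was run on the deposited counts. Genes passed filterByExpr, TMM factors were computed, and the quasi-likelihood test was fitted to all 3 groups without a block. Log2 fold changes are shMPZL3 #1 minus scr, a call is a Benjamini-Hochberg adjusted p under 0.05 over 16928 genes, and log2 CPM use a prior count of 2. Totals of 15040102 to 27835841 counts set the precision. The fit was tested on simulated data.

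The members and gene lists were chosen with earlier results of these data known, and 13 of the 48 lists were added after values were seen. Named by rule were MPZL3 and its family, the 10 largest called rises and falls of protein-coding genes (mean log2 CPM of at least 4, groups not overlapping), the 5 largest called changes in CPM each way (protein-coding, mitochondrially encoded genes left out), 3 non-coding rises and falls, and the 4 largest called members of each list. Further names are list members given for their known roles. Same-numbered scr and shMPZL3 #1 libraries correlated at 0.11, 0.00 and 0.04 in their deviations, so the numbers were not taken as pairs. The shMPZL3 #2 libraries were not part of that check. Among them, the same-numbered library was the nearest to each shMPZL3 #1 library, at distances of 0.607, 0.615 and 0.671. Distances between unlike numbers of these groups were 0.627 to 0.688, and a shared origin of equal numbers was not tested. Alternatives were other scalings, filters and thresholds, a replicate block, 6 libraries alone, thinned counts, DESeq2 1.42.0, limma 3.58.1 (voom), and leaving out each library. Promoters came from RefSeq (GRCh38.p14), of which 10728 matched. Results of a few genes are not reported here.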

Additional observations from a re-analysis of the deposited data

Results flagged for a closer look

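Of 208 named genes, 106 differed between the shRNAs by the test of the difference itself (edgeR, adjusted p under 0.05), and 33 whose difference was at least 1 on the log2 scale are given here as shMPZL3 #2 minus shMPZL3 #1. Groups held 3 libraries, so single libraries were not tested as outliers.

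In 15 genes shMPZL3 #2 was lower. The difference was -2.52 for ACTA2, -2.29 for IDO1, -1.62 for LINC00113, -1.502 for PLAU, -1.36 for CRYAB, -1.24 for COL1A2, -1.22 for LRRN4, -1.14 for CASP1, -1.14 for AKR1C3, -1.11 for DSC2, -1.08 for CNN1, -1.07 for HIST1H2AC, -1.06 for KLF2, -1.06 for CDK6 and -1.05 for EIF4E3. All 15 had been called higher with shMPZL3 #1.

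In 18 genes shMPZL3 #2 was higher. Of genes that rose with shMPZL3 #1, the difference was 1.04 for MX1, 1.11 for IL6, 1.29 for OAS3, 1.36 for TGFBI, 1.40 for OAS1 and 1.47 for FN1, so that these rose further. Of genes that fell with shMPZL3 #1, it was 1.09 for MTHFD2, 1.21 for MT1X, 1.23 for ENO2, 1.27 for PHGDH, 1.28 for MPZL3, 1.32 for AC022098.1, 1.33 for SLC7A11, 1.46 for MT1M, 1.504 for MT1E, 1.60 for IGFBP6 and 1.68 for MT1A. For CXCL8, which was not called with shMPZL3 #1, it was 2.42. The largest adjusted p among the 33 was 0.040, for MX1, and no cause of these differences was tested.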

How the results depend on the processing

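Against 5423 genes called (2838 higher, 2585 lower), an adjusted p under 0.01 left 3237 (1764 higher, 1473 lower), and a test against an absolute log2 fold change of 0.5 (glmTreat) left 1105 (847 higher, 258 lower), since both ask for more. Leaving out 1 library gave 3696 to 5416 calls, 1994 to 2986 higher and 1689 to 2440 lower, with the lowest total and the fewest lower without replicate 3 of shMPZL3 #1, where 3622 of the 5423 were still called, and the fewest higher without scr replicate 1. The S phase median ran from -0.55 to -0.42 in these fits. With the replicate number as a block 6355 genes were called (3251 higher, 3104 lower), no named gene changed its call, and the difference between the shRNAs went from 2559 to 3823. DESeq2 called 5647 and limma-voom 5266. The median of all genes was 0.00 to 0.04. The median of replication-dependent histone genes was 0.28 and turned to -0.0795 with no filter on low counts, and the cause was not tested. Of 208 named genes, 189 kept their side of the threshold in every alternative that tested them and 19 lost their call in at least 1. CDH2 (-0.23 to 0.03) and CXCL8 (-0.08 to 0.49), never called, changed sign. With 3 libraries a group and 1 cell line, small changes in genes of few counts were not detectable.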

Other observations

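Families of transcription factors, as the deposited table annotates them, moved unequally. Of 23 forkhead genes tested 9 were higher and 3 lower with shMPZL3 #1, and of 43 bZIP genes 14 were higher and 3 lower. Of 20 MYB family genes 2 were higher and 8 lower, of 38 HMG genes 7 were higher and 11 lower, and of the 518 C2H2 zinc finger genes 102 were higher and 38 lower. The families were looked at after the calls were known and are given as values, beside 16.8% higher and 15.3% lower over all genes.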
